A study of Rattus norvegicus with 16 samples.

Results

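The choroid plexus epithelium was represented by 10 genes (Ttr, Kl, Folr1, Clic6, Kcnj13, Sostdc1, Kcne2, Aqp1, Slc4a5 and Prlr) on 16 microarrays of rat brain. They were chosen by gene symbol, 10 of 15037 genes measured, and each had 1 probe set (called a probe below). The arrays held tissue of 4 nuclei cut by laser from Nissl-stained frozen sections. A pair came from the habenula, its medial (MHb) and lateral (LHb) part, and a pair from the hindbrain, where MVe stands for the medial vestibular nucleus and Sol for the solitary nucleus. Each nucleus was measured once under each of 4 treatments of male Wistar rats aged 8 to 10 weeks. The volatile anesthetic sevoflurane was given at 2.4%, which is 1 minimum alveolar concentration, and its control was oxygen without anesthetic (O2). The intravenous anesthetic propofol was infused at 36 mg/kg/hr after a bolus of 10 mg/kg, and its control was Intralipos, a 10% lipid emulsion, at the same rate and bolus. Rats of all groups breathed 40% oxygen at 6 L/min, and brains were taken after 60 minutes. No group had a second array, so treatments were compared with the 4 regions in the place of replicates, and regions with the 4 treatments. The labels do not tie arrays to rats. Arrays that share a rat would make the p-values too small.

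The choroid plexus is a folded epithelium that hangs in the ventricles, secretes cerebrospinal fluid and forms the barrier between blood and that fluid. Its cells make very large amounts of transthyretin, the carrier of thyroid hormone encoded by Ttr, and carry pumps, channels and transporters that move ions, water, folate and hormones. It is not part of any of the 4 nuclei, but the medial habenula borders the third ventricle, and the medial vestibular and solitary nuclei lie beneath the floor of the fourth. The labels do not say whether plexus tissue was cut along with a nucleus. Several of these genes are also made by other cells, as Kl and Prlr are in some neurons.

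The nuclei were checked against marker lists. The mean of 8 medial habenula markers was 14.47 to 14.75 (log2 signal) in the MHb arrays and at most 11.31 elsewhere. The mean of 6 solitary nucleus markers was 7.12 to 8.18 in Sol and at most 4.08 elsewhere, and that of 6 Hox genes of the hindbrain was 8.80 to 9.95 in Sol and at most 6.29 elsewhere. The 5 lateral habenula markers did not single out their nucleus, with 10.46 to 11.27 in LHb and up to 11.58 in MHb. The lists held no marker set for MVe. The mean of all probes lay higher in the sevoflurane and O2 arrays than in the propofol and Intralipos arrays, so treatments are compared only within those pairs. In tissue of this kind a lower signal can come from fewer cells of a type or from less RNA per cell, and these cannot be told apart.

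Ttr had the widest range among the 10 genes. Its gene lies on chromosome 18 (12216684 to 12225972, RefSeq annotation of GRCr8). In the order O2, sevoflurane, Intralipos, propofol, its log2 signal was 7.68, 6.62, 8.65 and 8.42 in LHb and 14.63, 13.43, 13.59 and 14.10 in MHb. It was 16.99, 17.11, 17.89 and 18.25 in MVe. The Sol arrays read 15.10, 12.18, 7.18 and 13.28. The 4 MVe arrays lay above the other 12, the 4 MHb arrays lay above all LHb arrays, and the Sol arrays ran from the LHb range to above the highest MHb array. The mean was 17.56 ± 0.61 (SD, n = 4 arrays) in MVe, 13.94 ± 0.54 in MHb, 11.94 ± 3.39 in Sol and 7.84 ± 0.92 in LHb.

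The region differences of Ttr were tested with limma, with treatment as a term and p-values adjusted over all genes by the Benjamini-Hochberg method. LHb was lower than MHb by -6.10 ± 0.93 on the log2 scale (moderated SE, adjusted p = 5.1e-05), a 68.5-fold difference. Sol was lower than MVe by -5.63 ± 0.93 (adjusted p = 1.0e-04), with differences from -10.71 to -1.90 over the 4 treatments. MHb was lower than MVe by -3.63 ± 0.93 (adjusted p = 0.00398) and LHb lower than Sol by -4.10 ± 0.93 (adjusted p = 0.0029). The neighbours MHb and Sol in this order differed by 2.00 ± 0.93, which did not pass (adjusted p = 0.105). Both habenular nuclei together were lower than both hindbrain nuclei by -3.86 ± 0.66 (adjusted p = 1.2e-04).

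**Figure D1:**
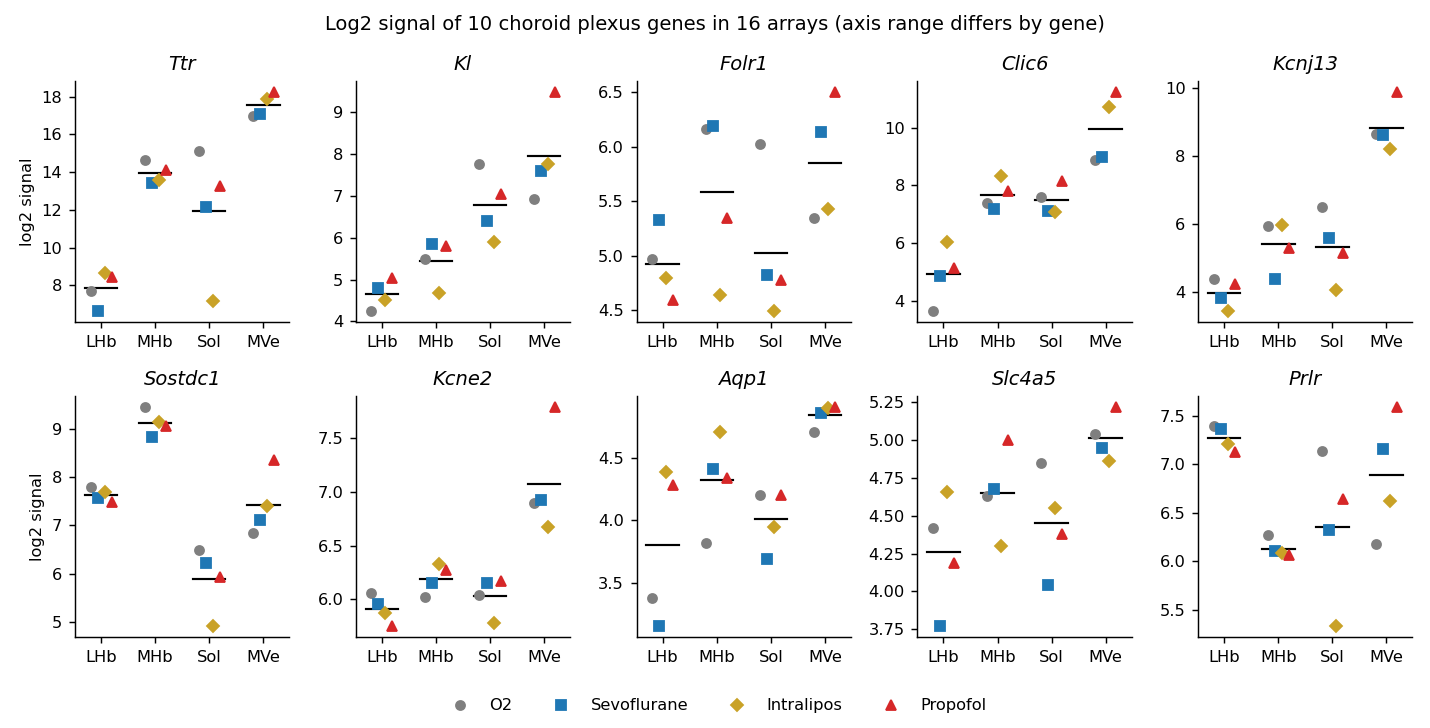
Log2 signal (vertical axis, range differs by gene) of the 10 genes in the 4 regions, 1 point for each array, with symbols for the treatments and a bar at the mean of 4 arrays. Ttr is between 16.99 and 18.25 in MVe and between 6.62 and 8.65 in LHb, whereas Sostdc1 is highest in MHb and Prlr has its highest mean in LHb.

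All 10 genes passed the moderated F test over the 4 regions, in which 54.1% of all genes passed. Folr1 passed it narrowly (adjusted p = 0.0337) and lost the call without any 1 of 9 of the 16 arrays. Slc4a5 (adjusted p = 0.014) lost it without the MVe sevoflurane array (0.0578). In the sevoflurane and O2 arrays alone 7 of 10 passed, with Folr1 at 0.181, Prlr at 0.0881 and Slc4a5 at 0.0673 not called. In the propofol and Intralipos arrays alone 8 passed, with Slc4a5 at 0.295 and Aqp1 at 0.0599 not called. The 54.1% holds for all 16 arrays, and the share of all genes that passed in each subset is not given here. In Sol minus MVe, 9 of 10 genes were called, against 35.2% of all genes called in either direction, and each of the 9 was lower in Sol. In LHb minus MHb, 5 of 10 were called, against 28.5%. Lower in LHb were 4 of them (14.4% of all genes), and Prlr was higher (14.1%). In habenula minus hindbrain, 6 of 10 were called, against 38.1%. Lower in the habenula were 5 of them (19.8%), and Sostdc1 was higher (18.3%). The 4 LHb arrays did not overlap the 4 MHb arrays in 4 of the 10 genes, against 22.4% of all, and the Sol arrays did not overlap the MVe arrays in 7, against 25.7%. The median of the 10 genes was -1.10 in Sol minus MVe, where the median of all genes was -0.02.

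The same order of region means as in Ttr was found in 6 of the other 9 genes, MVe above MHb above Sol above LHb, namely in Clic6, Kcnj13, Folr1, Kcne2, Aqp1 and Slc4a5. That order was found in 544 genes, 3.62% of all. The highest of the 16 arrays was MVe propofol for 9 of the 10 genes, Ttr included and Sostdc1 excepted, against 4.21% of all genes. With every array centred on its own mean the count was again 9 and the share of all genes 7.01%.

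Clic6, which encodes a member of the intracellular chloride channel family, came nearest to Ttr. In the same order of treatments its log2 signal was 3.63, 4.87, 6.04 and 5.12 in LHb, 7.40, 7.16, 8.33 and 7.80 in MHb, 7.59, 7.12, 7.09 and 8.16 in Sol, and 8.88, 8.98, 10.70 and 11.23 in MVe. No LHb array reached any array of another region, and no array of another region reached MVe. MVe exceeded MHb, with MHb minus MVe at -2.28 ± 0.35 (adjusted p = 3.5e-05), and LHb was below Sol by -2.58 ± 0.35 (2.2e-05). MHb and Sol differed by 0.18 ± 0.35 (0.748). In the Sol Intralipos array, where Ttr was lowest in its region, Clic6 was also lowest at 7.09. That lay next to the 7.12 of the sevoflurane array, which belongs to the other array set. Within its own pair, propofol minus Intralipos in Sol was 1.07 for Clic6, against 6.10 for Ttr.

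Kcnj13 encodes the inward rectifier potassium channel of the fluid-facing membrane of this epithelium. Its log2 signal was 8.64, 8.61, 8.20 and 9.89 in MVe and at most 6.51 in the other 12 arrays. It was 4.38, 3.82, 3.43 and 4.24 in LHb, 5.95, 4.37, 5.97 and 5.31 in MHb, and 6.51, 5.58, 4.05 and 5.15 in Sol. The step from MVe down was the large one: Sol minus MVe was -3.52 ± 0.38 (adjusted p = 7.9e-07) and MHb minus MVe -3.43 ± 0.38 (6.3e-07). MHb and Sol differed by 0.08 ± 0.38 (0.902), and LHb was below MHb by -1.44 ± 0.38 (0.00745), with 1 MHb array inside the LHb range.

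Promoter windows from RefSeq (GRCr8, 250 bases before an annotated start) were at hand for 6 of the 10 genes, in 7 windows because Prlr had a pair. They are given for Kcnj13 and Aqp1, the channel genes with Ttr's order of regions whose windows both hold a TATA box. Capitals mark TATAAA on the gene's strand and CCAAT, read as ATTGG on the other strand.
Kcnj13: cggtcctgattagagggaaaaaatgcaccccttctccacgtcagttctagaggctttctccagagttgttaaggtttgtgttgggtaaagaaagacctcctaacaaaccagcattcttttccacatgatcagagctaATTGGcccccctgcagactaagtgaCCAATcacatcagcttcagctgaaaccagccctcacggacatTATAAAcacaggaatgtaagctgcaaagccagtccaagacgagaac
Aqp1: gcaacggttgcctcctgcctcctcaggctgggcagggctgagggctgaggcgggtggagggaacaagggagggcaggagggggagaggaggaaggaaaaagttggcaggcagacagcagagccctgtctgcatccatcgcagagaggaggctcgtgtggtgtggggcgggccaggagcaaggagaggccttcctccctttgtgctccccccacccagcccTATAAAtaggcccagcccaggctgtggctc
The Kcnj13 window is chr9:95518987-95519236 on the minus strand and lies within the annotated gene. Its TATAAA begins 46 bases before the start, with CCAAT boxes beginning 113 and 88 bases before it. The Aqp1 window is chr4:85812534-85812783 on the plus strand, with TATAAA 30 bases before the start and no CCAAT. Of 33469 windows of that length, 8.06% held TATAAA on the gene's strand and 34% held CCAAT on either strand. The core motif of Otx factors, TAATCC, was in none of the 7 windows on either strand, against 6.34% of all windows. TATAAA and CCAAT do not overlap each other in either sequence.

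Kcne2, Aqp1, Slc4a5 and Folr1 had Ttr's order but much smaller ranges. Kcne2, the accessory subunit of voltage-gated potassium channels, was 6.90, 6.92, 6.67 and 7.79 in MVe and between 5.75 and 6.33 in the other 12 arrays, so the groups did not overlap. Its Sol minus MVe difference was -1.04 ± 0.19 (adjusted p = 2.3e-04) and its MHb minus MVe difference -0.88 ± 0.19 (8.0e-04). No pair among LHb, MHb and Sol passed, with adjusted p from 0.306 to 0.697. Kcne2 and Clic6 both lie on chromosome 11, at 45003468 to 45015942 and 45223715 to 45266261.

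Aqp1, the water channel of the fluid-facing membrane, was 4.71, 4.86, 4.90 and 4.91 in MVe. It was 3.38, 3.15, 4.39 and 4.28 in LHb, 3.82, 4.41, 4.71 and 4.34 in MHb, and 4.20, 3.69, 3.95 and 4.20 in Sol. The MVe arrays were the 4 most alike, with an SD of 0.10, while the LHb arrays split by array set, the O2 and sevoflurane arrays lying below the other pair. Sol minus MVe was -0.84 ± 0.21 (adjusted p = 0.00433), whereas no neighbours in its order passed, with MHb minus MVe at -0.53 ± 0.21 (0.0549).

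Slc4a5, a sodium bicarbonate cotransporter, spanned only 1.45 log2 units over all arrays, from 3.77 to 5.22. Sol lay below MVe by -0.56 ± 0.19 (adjusted p = 0.0289) and LHb below MVe by -0.76 ± 0.19 (0.00572). No neighbours in its order passed. Folr1, the receptor that carries folate into cerebrospinal fluid, was 4.97, 5.33, 4.80 and 4.59 in LHb, 6.16, 6.19, 4.64 and 5.35 in MHb, 6.02, 4.82, 4.49 and 4.78 in Sol, and 5.35, 6.13, 5.43 and 6.50 in MVe. Only the LHb and MVe arrays did not overlap, and LHb minus MVe was -0.93 ± 0.30 (0.0272). Sol minus MVe was -0.83 ± 0.30 (0.0391), with Sol higher under O2. This call was lost without any 1 of 6 arrays, and the difference was -0.52 (0.196) without MVe propofol. No neighbours in the order passed. The highest arrays of Folr1, Aqp1 and Slc4a5 stayed below the median of all gene values, 6.86, so these are dim probes.

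In Sol minus MVe, 5 of 10 genes passed in the sevoflurane and O2 arrays alone and 9 in the propofol and Intralipos arrays alone. The latter 9 were other than in all arrays, with Prlr called (-1.12, adjusted p = 0.0309) and Slc4a5 not (-0.57, 0.193). The calls lost in the sevoflurane and O2 arrays were those of 4 genes. Kl was at -0.18 (adjusted p = 0.798), Folr1 at -0.32 (0.6), Sostdc1 at -0.62 (0.0888) and Slc4a5 at -0.55 (0.146). Leaving out the Sol sevoflurane, Sol propofol or MVe propofol array left 6 of 10. The share of all genes called in these smaller sets of arrays is not given here. These counts therefore have no background, and fewer arrays also make a call harder to reach.

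**Figure D2:**
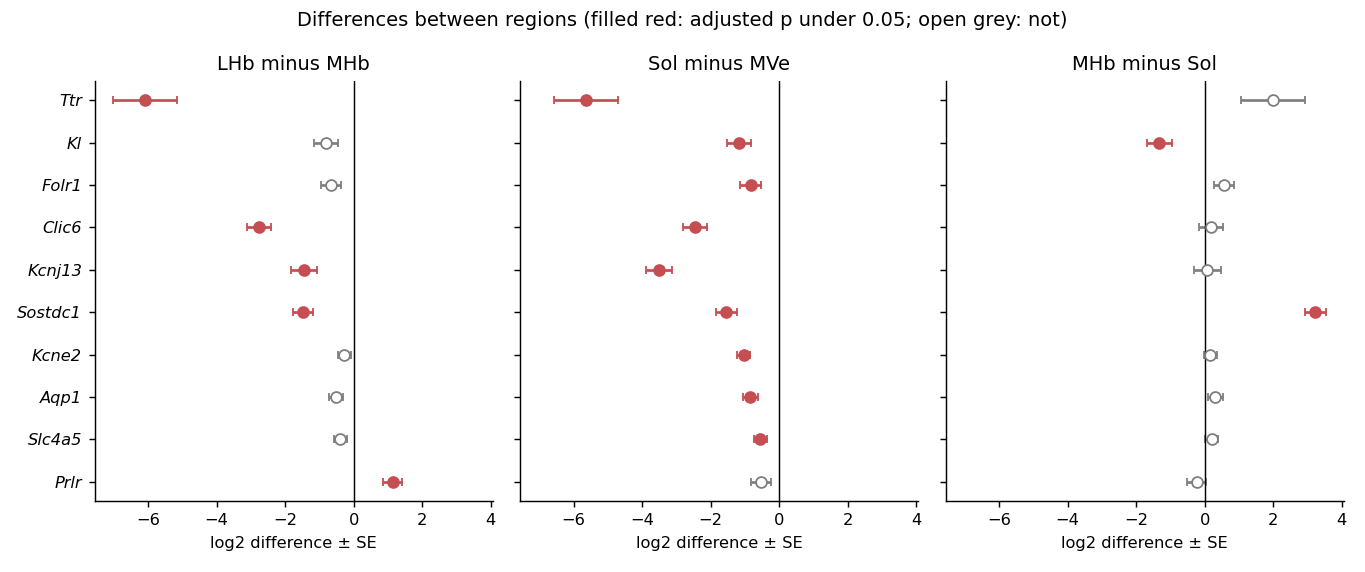
Fitted log2 difference (horizontal axis, bars are moderated SE) between regions for the 10 genes, filled red where the adjusted p was under 0.05. In Sol minus MVe 9 of 10 are called and lower, and in MHb minus Sol the called genes are Kl at -1.33 and Sostdc1 at 3.23.

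Kl, Sostdc1 and Prlr had orders of their own. Kl encodes klotho, the co-receptor for the hormone FGF23 that is also shed into cerebrospinal fluid. Its log2 signal was 4.24, 4.80, 4.51 and 5.05 in LHb, 5.49, 5.85, 4.67 and 5.81 in MHb, 7.76, 6.41, 5.90 and 7.06 in Sol, and 6.94, 7.59, 7.77 and 9.49 in MVe. All 8 hindbrain arrays lay above all 8 habenula arrays, and Sol was above MHb, the reverse of Ttr. MHb minus Sol was -1.33 ± 0.36 (adjusted p = 0.00669), and it was 1 of 2 genes of the 10 called in that contrast, against 38.7% of all genes. MVe was above Sol, with Sol minus MVe at -1.17 ± 0.36 (0.0175), a call lost without the MVe propofol array (-0.77, adjusted p = 0.1) and without 4 other hindbrain arrays. LHb and MHb differed by -0.81 ± 0.36 (0.115).

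Sostdc1 encodes a secreted inhibitor of BMP and Wnt signals. Its log2 signal was 9.45, 8.83, 9.13 and 9.05 in MHb, above every other array. It was 7.80, 7.57, 7.68 and 7.48 in LHb, 6.83, 7.11, 7.40 and 8.35 in MVe, and 6.49, 6.21, 4.91 and 5.92 in Sol. The habenula was higher than the hindbrain by 1.72 ± 0.21 (adjusted p = 2.3e-06), opposite in sign to Ttr. MHb was higher than Sol by 3.23 ± 0.30 (5.1e-08) and than MVe by 1.69 ± 0.30 (1.3e-04), and higher than LHb, with LHb minus MHb at -1.48 ± 0.30 (7.8e-04). LHb and MVe differed by 0.22 ± 0.30 (0.662).

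Prlr, the receptor for prolactin, was 7.39, 7.36, 7.21 and 7.13 in LHb and 6.27, 6.11, 6.08 and 6.06 in MHb, with no overlap. It was 7.14, 6.32, 5.33 and 6.64 in Sol and 6.18, 7.16, 6.62 and 7.59 in MVe, and these overlapped each other and both habenular nuclei. LHb was higher than MHb by 1.14 ± 0.28 (adjusted p = 0.00457), where the other 9 genes had values below 0. LHb was higher than Sol by 0.92 ± 0.28 (0.023), against 25.3% of genes called in that contrast, in which 6 of the 10 passed. MHb was lower than MVe by -0.76 ± 0.28 (0.0399), against 40.9% called there and 7 of the 10 genes. Sol minus MVe was -0.53 ± 0.28 (0.166), LHb minus MVe 0.38 ± 0.28 (0.37), and MHb minus Sol -0.23 ± 0.28 (0.592). LHb minus MVe called 8 of the 10 genes, against 26.7% of all, and Sostdc1 and Prlr were the exceptions.

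How closely each gene followed Ttr was described by Pearson's r over the 16 arrays, on values centred within each array set, and by r after region means were also removed. Following Ttr was taken as at least 0.8 on the first and 0.7 on the second. The arrays share regions and perhaps rats, so these are descriptions without a p-value. Over all arrays, r was 0.94 for Clic6, 0.89 for Kcnj13, 0.84 for Aqp1, 0.79 for Kl, 0.78 for Kcne2, 0.74 for Slc4a5 and 0.70 for Folr1. It was 0.22 for Sostdc1 and -0.03 for Prlr. The threshold of 0.8 was reached by 3 genes, against 0.459% of all genes, and Clic6 ranked as the second most like Ttr of 15036.

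Within regions the ranking was another. After region means were removed, r with Ttr was 0.77 for Prlr and 0.76 for Sostdc1, 0.66 for Kcnj13, 0.62 for Clic6, 0.60 for Kl, 0.44 for Folr1 and Aqp1, and 0.29 for Kcne2 and Slc4a5. The 2 genes at or above 0.7 compare with 1.18% of all genes, and no gene met both thresholds, against 0.0333%. By that rule Clic6, Kcnj13 and Aqp1 followed Ttr in part, through the regions, and Sostdc1 and Prlr in part, within them, while Kl, Kcne2, Slc4a5 and Folr1 met neither. Kcne2, Slc4a5 and Folr1 nonetheless had Ttr's order of means.

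The within-region values rested on the Sol arrays. Without Sol Intralipos, r was 0.48 for Sostdc1, 0.50 for Prlr and 0.29 for Clic6, and was 0.75 for Slc4a5. Without Sol O2, it was 0.70 for Sostdc1 and 0.68 for Prlr, so neither reached 0.7 before rounding. With region means kept in, r of Prlr with Ttr in the 8 habenula arrays was -0.98 and in the 8 hindbrain arrays 0.78, and that of Sostdc1 was 0.98 and 0.94. These values hold the step between the nuclei of each pair. With region means removed, 0 of the 9 genes reached 0.7 in the habenula arrays and 5 in the hindbrain arrays. The share of all genes was not computed for these sets of 8 arrays, where a fixed r is easier to reach. These counts therefore have no background and do not show that members follow Ttr.

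**Figure D3:**
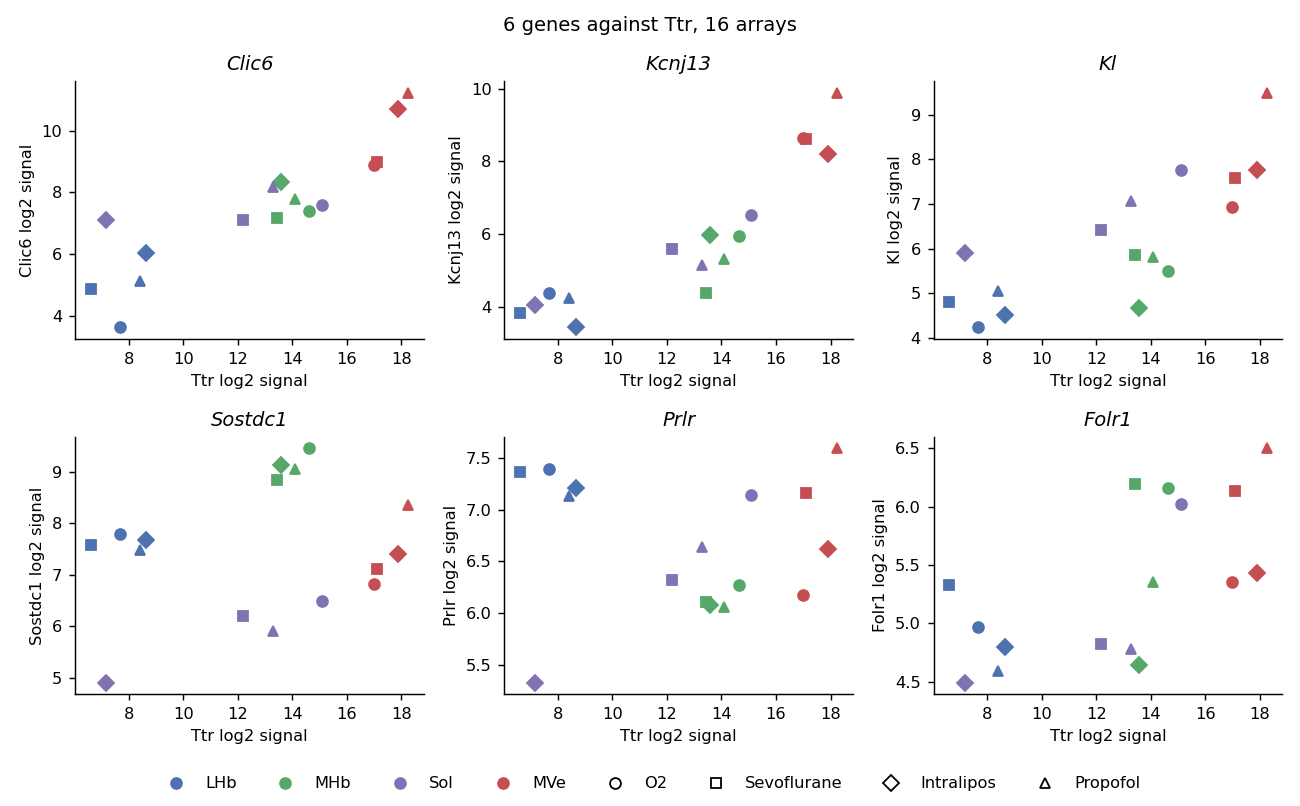
Log2 signal of 6 genes (vertical axes) against that of Ttr (horizontal axes), 1 point for each of the 16 arrays, coloured by region, with symbols for treatments. Clic6 and Kcnj13 rise across the regions with Ttr (r of 0.94 and 0.89), whereas the MHb arrays of Sostdc1 lie above the rest and the LHb arrays of Prlr lie high at low Ttr.

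With region and treatment in the model, the slope on Ttr passed for none of the 9 genes and for 0 of 15036 genes (0%), while 5 of 9 had an unadjusted p under 0.05, against 7.48% of all genes. The slope was 0.27 ± 0.07 log2 units per log2 unit of Ttr for Clic6 (adjusted p = 0.338), 0.21 ± 0.05 for Prlr (0.367), 0.21 ± 0.06 for Sostdc1 (0.416), 0.21 ± 0.09 for Kcnj13 (0.616) and 0.20 ± 0.08 for Kl (0.616). The others were between 0.02 and 0.11. Without Sol Intralipos the slope of Kl was 0.73 ± 0.16 (0.641), that of Folr1 0.64 ± 0.13 (0.641), and that of Prlr 0.37 ± 0.14 (1). Without Sol O2 the slope of Kl was 0.07 (0.951).

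With Ttr in the model, a regional difference was still called for 6 of the 9 genes, against 49.9% of all genes. The adjusted p was 3.5e-08 for Sostdc1, 1.4e-04 for Prlr, 4.8e-04 for Kl, 5.5e-04 for Kcnj13, 0.00842 for Clic6 and 0.0479 for Kcne2. It was 0.658 for Aqp1, 0.695 for Slc4a5 and 0.7 for Folr1. Without Sol Intralipos the call of Clic6 was lost (0.424) and Folr1 was called (0.00714). Kcne2 lost its call without any 1 of 13 arrays. Sostdc1, Prlr, Kl and Kcnj13 kept theirs without each of the 16 arrays, with the highest adjusted p at 0.00402 for Kl.

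The Sol arrays set the spread of several genes at once. Sol Intralipos was the lowest of the 4 Sol arrays for 8 of 10 genes, Aqp1 and Slc4a5 excepted, and for 37.3% of all genes. Sol O2 was the highest for 8 of 10, Clic6 and Kcne2 excepted, and for 32.4% of all genes. With arrays centred on their means the counts were 7 and 7, against 26.2% and 21.8%. The solitary nucleus markers themselves had means of 8.18 under O2, 7.77 under sevoflurane, 7.12 under Intralipos and 7.62 under propofol, so the same arrays were highest and lowest. Means of the Hox genes were 9.95, 9.51, 8.80 and 9.59 in that order, those of 12 markers of meninges and fibroblasts 6.91, 6.56, 6.10 and 6.38, and those of 12 markers of the ciliated ependyma that lines the ventricles 5.72, 5.62, 5.28 and 5.38. Means of 8 mural cell markers (7.54, 7.47, 7.03 and 7.24) had the same extremes. So did those of 36 other plexus genes (7.0, 6.8, 6.53 and 6.76). Other lists ran otherwise in part. Neuron markers were highest under propofol (14.89), and those of astrocytes (15.86), microglia (9.5) and endothelial cells (8.23) under sevoflurane. Those of neurons (14.64), microglia (8.32) and endothelial cells (7.72) were lowest under Intralipos. Markers of blood (8.95) and oligodendrocytes (11.86) were lowest under propofol. The list means were not centred, and O2 and Intralipos belong to array sets with different means. The part that the tissues of these lists play in the signals of the choroid plexus genes was not tested.

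The anesthetics were each compared with their own control over the 4 regions. Sevoflurane minus O2 passed for none of the 10 genes and for 0 genes in all (limma, 0%), with 0 of the 10 and 4.99% of all genes at an unadjusted p under 0.05. Ttr was at -1.26 ± 0.93 (adjusted p = 0.989), with -2.92 in Sol, -1.06 in LHb, -1.20 in MHb and 0.12 in MVe, and at -0.21 without Sol O2. Kcnj13 was below 0 in 4 of 4 regions, from -1.58 in MHb to -0.04 in MVe, at -0.77 ± 0.38 (0.982), and at -0.44 without MHb sevoflurane. Of the 10 genes, 4 were above 0. The values for the others lay between -0.38 for Slc4a5 and 0.16 for Clic6.

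Propofol minus Intralipos also passed for none of the 10 genes, against 0.0200% of all genes, and 1 of 10 (Kl) had an unadjusted p under 0.05, against 6.92%. Ttr was at 1.69 ± 0.93 (adjusted p = 0.773), with 6.10 in Sol, -0.24 in LHb, 0.52 in MHb and 0.36 in MVe. The value was 0.01 without Sol Intralipos. Kl was above 0 in 4 of 4 regions, with 1.72 in MVe, 1.16 in Sol, 1.14 in MHb and 0.55 in LHb, and a mean of 1.14 ± 0.36 (0.64) that was 0.74 without MVe propofol. Of the 10 genes, 9 were above 0, with a median of 0.44 against 0.01 for all genes. The number of the 10 genes that were higher in the propofol array than in the Intralipos array was 10 in MVe, 9 in Sol, 4 in MHb and 2 in LHb. Of all genes, 49.2%, 51.0%, 52.8% and 51.7% were higher in these pairs of single arrays. The corresponding counts for sevoflurane over O2 were 8, 1, 5 and 3, against 54.7%, 49.5%, 49.3% and 50.8% of all genes.

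The difference between both anesthetic effects passed for 0 of 10 genes, against 0.0133% of all genes, and 3 of 10 had an unadjusted p under 0.05 (Ttr, Kl and Kcnj13), against 5.01%. Ttr was at -2.95 ± 1.32 (adjusted p = 0.952), and at -1.28 without Sol Intralipos. Kcnj13 was at -1.51 ± 0.54 (0.946). Both were below 0 in 4 of 4 regions. The difference of an anesthetic's effect between habenula and hindbrain passed for none of the 10 genes under either anesthetic, with 0 of 15037 genes called (0%) for each. At an unadjusted p under 0.05 there were 0 of the 10 for sevoflurane, against 5.34% of all genes, and 3 of the 10 for propofol (Clic6, Kcne2 and Prlr), against 5.43%. For propofol, Ttr had -3.09 ± 1.80 (0.932), and 0.30 without Sol Intralipos.

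**Figure D4:**
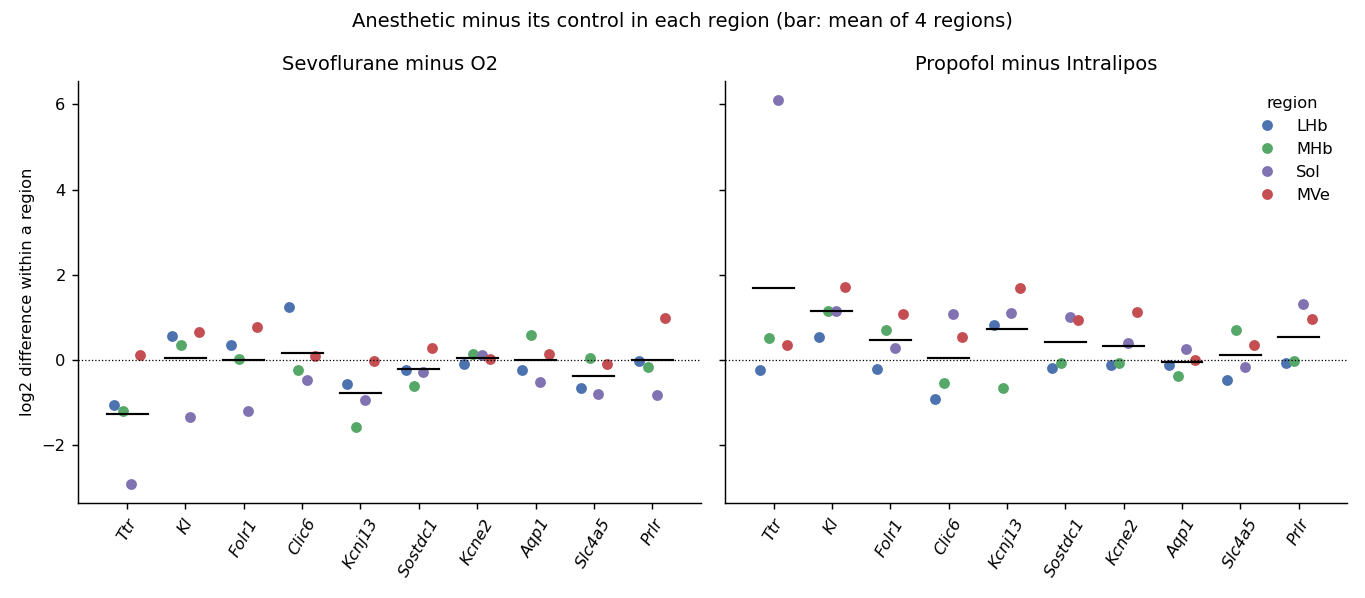
Log2 signal of each anesthetic minus its control (vertical axis) within each region, for the 10 genes, with a bar at the mean of 4 regions. The Sol pair of Ttr reads 6.10 for propofol and -2.92 for sevoflurane, and the points of Kl for propofol all lie above 0.

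Of 43 other genes of the plexus that were listed, 36 were measured. Of the 36, 29 passed the region F test (54.1% of all genes). The highest region was MVe for 17, MHb for 10, Sol for 5 and LHb for 4, with genes that did not pass included. The share of all genes highest in each region was not computed, so this tally has no background. Ttr's order was found in 2 of the 36, against 3.62% of all genes. They were Car12, a carbonic anhydrase gene, and the organic anion transporter gene Slco1a5. For Car12 the means in MHb and Sol were nearly equal, 5.57 and 5.56, and Slco1a5 was dim, with region means from 3.8 to 4.61. Otx2, the homeobox gene that maintains choroid plexus identity, had Sostdc1's order, with mean log2 signals of 12.82 in MHb, 8.84 in LHb, 6.74 in MVe and 5.27 in Sol, and so did the cation channel gene Trpm3. The habenula was higher than the hindbrain in Otx2 by 4.83 ± 0.20 (adjusted p = 7.9e-13).

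Some further members of that list sided with MHb or with MVe, and others with LHb or Sol. Slc12a2 had its highest mean in LHb, 13.56, with MVe close at 13.54, and LHb minus Sol was 2.56 ± 0.15 (adjusted p = 3.2e-10). Sulf1 was highest in Sol, at 6.8, with LHb minus Sol at -1.76 ± 0.17 (3.8e-07). The members that follow sided with MHb or MVe. Tmem72, a membrane protein gene, was 8.22 in MHb and 7.48 in MVe, against 5.23 in LHb and 5.09 in Sol, and Mfrp, a membrane protein of the frizzled family, was 9.58 and 7.72, against 6.33 and 5.08. Igfbp2, a binding protein of insulin-like growth factors, was 10.17 in MVe and at most 7.51 elsewhere, with Sol minus MVe at -2.67 ± 0.23 (5.0e-08). The potassium channel gene Kcna1, which neurons also express, was 14.55 in MVe and 6.99 in Sol, and gave the largest difference of the list in that contrast, -7.55 ± 0.19 (5.5e-15). Under propofol 24 of the 36 were above 0, with a median of 0.06 against 0.01 for all genes, and 0 were called.

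The mean of 12 markers of ependymal cells was highest in MHb, at 5.77 to 6.27, against 5.44 to 5.72 in MVe, 5.28 to 5.72 in Sol and 4.67 to 5.08 in LHb. Single markers varied. In MHb minus MVe 4 of the 12 were called higher and 1 lower, where 40.9% of all genes were called in either direction. In MHb minus Sol 5 were called higher and 1 lower, where 38.7% of all genes were called. The counts in both of these contrasts are near those shares. In LHb minus MHb 6 of the 12 were called lower in LHb and 1 higher. Of all genes, 28.5% were called there in either direction and 14.4% were called lower. Foxj1, which drives the making of cilia, had means of 6.45 in MHb and 6.55 in Sol. The part of ependymal tissue in the region differences was not tested. Of 6 markers of the pineal gland and subcommissural organ, which lie near the habenula, 0 passed the region F test, and their mean was 4.24 to 4.74 in every array.

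The genes most like Ttr outside the group were in none of the plexus lists used here. They were Itpr1, the gene for an intracellular calcium release channel (r = 0.951 over 16 arrays), Ebf3 (0.931), Ndrg3 (0.906), P2rx6 and Park7 (both 0.903), Tmem178a (0.9), Cdc37 (0.898) and Tmtc4 (0.897). The range of Itpr1, 7.32 to 9.65, was far narrower than that of Ttr. Itpr1 was likewise the gene most like Clic6 (0.944) and Park7 that most like Kcnj13 (0.957). The gene most like Kl was Cnnm1 (0.921), and those most like the dimmer members were Nars1 for Folr1 (0.876), Camk1g for Kcne2 (0.927), P2rx6 for Aqp1 (0.865) and Washc2c for Slc4a5 (0.886). Sostdc1 was most like Prox1 (0.947), Gria3 (0.946) and Sv2b (0.945), and Prlr most like Mical2 (0.859) and Lrrc4 (0.853).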

How the data were processed

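The deposited values were log2 signals, 1 for each probe set and array, and the authors had normalised them. The submitters' processing notes name Affymetrix Expression Console 1.3.0 as the software. Nothing states the log2 scale, which was inferred from a range of 2.47 to 19.93, and every fold rests on it. How probes were summarized, and on which genome build, is not given in the sources used here. Per the labels' protocols, sections were 30 µm thick and 100 ng of total RNA was labelled.

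Of 24834 probe sets, 94 were controls and 15049 had 1 gene symbol (0 had several and 9691 had none here), taken from the platform annotation, giving 15037 genes by the brightest probe. No filter on dim genes was applied, and the values carry no detection call. limma 3.58.1 in R 4.3.3 fitted treatment and region to all 16 arrays (9 residual degrees of freedom, two-sided, Benjamini-Hochberg over all genes, threshold 0.05), and 6 remained for the difference of effects between habenula and hindbrain and 8 with Ttr in the model. SEs are moderated and rest on the residual spread over all arrays. The number of arrays limits the precision. The code was tested on simulated data. Likeness was computed in Python 3.11.15.

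The members, marker lists and thresholds were chosen with earlier results of these data known, and give no independent support. All 10 members entered every comparison, with Ttr as the reference where genes were set against it, but not every value is given in the text. Outside them, the 8 genes most like Ttr and the 3 most like each other member qualified to be named, among genes whose highest array reached the median of all values, as did up to 4 members of a list with the largest change in a contrast. Car12, Slco1a5 and Trpm3 were named for their order of regions, and Foxj1 as a defining marker, after their values were seen. The searches for TATAAA and CCAAT, the counts of highest and lowest arrays, and the counts of signs within regions, were added after the data were seen.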

Additional observations from a re-analysis of the deposited data

How the results depend on the processing

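The counts of members called in the region and treatment comparisons changed by less than 1.5 times under the following settings. These were quantile normalisation of all arrays together, arrays centred on their means, and trend and robust variance estimates. Taking the mean of a gene's probes could not test these counts, because each member had 1 probe and its values stayed the same. Among genes whose highest array reached the median, Folr1, Aqp1 and Slc4a5 were not tested. In the sevoflurane and O2 arrays alone, members called in Sol minus MVe fell from 9 to 5, a count without a share of all genes beside it. In the same arrays Folr1 in habenula minus hindbrain changed sign to 0.08 and Prlr in Sol minus MVe to 0.06. The mean of 5 members (Folr1, Clic6, Kcnj13, Sostdc1 and Kcne2) was also put in place of Ttr. Each of those 5 was itself fitted on the mean of the others. With this reference 1 slope was called, that of Sostdc1 (1.14, adjusted p = 0.0476), and the share of all genes called is not given.

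Members with r of at least 0.8 numbered 6 in the hindbrain arrays alone. Members with r of at least 0.7 within regions numbered 0 in the habenula arrays alone, 5 in the hindbrain arrays alone and 1 without the 2 arrays farthest from the Ttr median (LHb sevoflurane and Sol Intralipos). Members over both numbered 4 in the hindbrain arrays alone. Shares of all genes were not computed for these subsets of arrays, so the counts have no background. Leaving out 1 array at a time, a choice added after the data were seen for the likeness values, gave 2 to 5 members at 0.8 (5 without MHb O2), 0 to 3 at 0.7 (0 without Sol O2, 1 without Sol Intralipos) and 0 to 1 over both.

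Leaving out 1 array at a time turned the sign of Prlr in habenula minus hindbrain (-0.10 to 0.23). It also turned the difference between habenula and hindbrain of the sevoflurane effect for Kl (-0.51 to 2.13), Clic6 (-0.10 to 1.46) and Kcnj13 (-1.5 to 0.33), and of the propofol effect for Ttr (-6.48 to 0.30) and Kl (-1.44 to 0.24). None of these was called. The cause of the changes was not tested. No paired analysis was possible because the labels give no replicate numbers, and region and treatment are already terms of the fit.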
